A study of Mus musculus with 12 samples.

Results

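The 34 genes described here encode the transcription factor ATF4, factors that act beside it, and products of its programme for amino acid supply and tRNA charging. They were chosen by gene symbol from a table of 17090 genes, with earlier results of these data known, and all 34 were found there. The shares over all genes given below thus describe the 34 genes and are no test of them as a set. Each had at least 1 CPM (a read count scaled for library size) in at least 3 libraries, so all 34 stood among the 12966 genes tested. By role they comprised 6 transcription factors, 5 feedback and stress targets, 4 amino acid transport genes, 8 amino acid synthesis enzymes and 11 cytosolic aminoacyl-tRNA synthetases.

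ATF4 is a basic leucine zipper factor whose translation increases when a stress kinase (GCN2, PERK, PKR or HRI) phosphorylates initiation factor eIF2, while general protein synthesis falls. This integrated stress response is set off by, among others, amino acid shortage and misfolded protein in the endoplasmic reticulum. ATF4 then binds composite C/EBP-ATF elements near genes for amino acid import, for serine, glycine, asparagine and proline synthesis, and for the enzymes that load amino acids onto tRNAs. YAP1 and TAZ, the latter encoded by Wwtr1, are transcriptional coactivators that work mainly through TEAD factors, and they are known in skin for sustaining growth of basal epidermal cells and tumours.

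All 12 libraries came from primary keratinocytes of K14-SmoM2 mice, in which an active form of Smoothened drives Hedgehog signalling in the keratin 14 lineage and gives rise to basal cell carcinoma. The cells were taken from tail skin 5 weeks after tamoxifen and were kept in EpiLife medium at 60 µM calcium with EDGS supplement, 10 ng/ml mouse EGF and 10 µM Y-27632. The siControl group received a non-targeting siRNA pool and the siYAP1+TAZ group received pools against both coactivators, each at 8 pmol per cm2 with Lipofectamine RNAiMAX. The adeno-GFP group received a virus encoding GFP and the adeno-TEADi group a virus encoding TEADi, an inhibitor of TEAD activity, both at a multiplicity of infection of 25. The TEADi virus was an E1- and E3-deleted adenovirus with a CMV promoter. Treatment began 1 day after plating and cells were harvested 48 h later. Every group had 3 libraries, lettered A to C, and every group carried SmoM2, so no comparison bears on SmoM2 itself. The labels do not say whether the letters stand for separate cultures or animals. The p-values therefore rest on the spread among the 12 libraries, and that spread may be technical.

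Libraries held 20.0 to 29.1 M reads as read from the steps of the lowest values, and the 34 genes had between 75 and 14581 reads in a library. Yap1 fell in siYAP1+TAZ from 196 ± 9.57 to 67.1 ± 4.62 CPM (SD, n = 3) and Wwtr1 from 55.2 ± 1.96 to 28.1 ± 1.97 CPM. Ccn2, a direct YAP1/TAZ-TEAD target, fell in siYAP1+TAZ (log2 change -2.31) and in adeno-TEADi (log2 change -3.37). The 6 keratinocyte markers summed to between 37515 and 43766 CPM in every library, against at most 14.4 CPM for markers of fibroblasts, melanocytes or endothelium. Immune markers, of which 5 of 8 had values, summed to 17.3 to 18.2 CPM in siControl, 49.7 to 51.5 in siYAP1+TAZ, 17.3 to 19.8 in adeno-GFP and 40.1 to 44.0 in adeno-TEADi. Most of that sum was Cd68, a lysosomal gene that macrophages express highly (log2 change 1.83 and 1.47), while the pan-leukocyte gene Ptprc was under the 1 CPM minimum. Of the 4 immune markers tested, Cd68, Itgam and Lyz2 were higher and Csf1r was lower in both comparisons with treatment. The part of other cells in the results below was not tested, and in bulk RNA fewer cells of a type and less RNA per cell cannot be told apart.

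Promoter sequences were read to describe the genes. The genes were chosen as part of the ATF4 programme, which is known by such elements. The share with a match is thus not independent of that choice. RefSeq promoter windows of 300 bases (250 before the start of the transcript and 50 after it, build GRCm38.p6) were at hand for 29 of the 34 genes. The ATF4-type composite element was searched as the 8 letters TGATGNAA on either strand. It occurred in 13 of the 29 genes (44.8%), against 1219 of 27025 mouse genes with a window (4.51%). GGAATG, the core bound by TEAD factors, occurred on either strand in 1 of the 29, Aars (3.45%), against 16.6% of all genes. A match describes letters in this window and does not show binding, and a window without a match says nothing of the factor.

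The windows printed here belong to the 8 of 10 eligible genes with the largest change, because these hold a match and changed at least 1.5-fold in at least 1 of the comparisons with treatment. They read 5′ to 3′ on the strand of the gene, with the match in capitals, so that a match on the other strand appears as TTNCATCA.
Trib3: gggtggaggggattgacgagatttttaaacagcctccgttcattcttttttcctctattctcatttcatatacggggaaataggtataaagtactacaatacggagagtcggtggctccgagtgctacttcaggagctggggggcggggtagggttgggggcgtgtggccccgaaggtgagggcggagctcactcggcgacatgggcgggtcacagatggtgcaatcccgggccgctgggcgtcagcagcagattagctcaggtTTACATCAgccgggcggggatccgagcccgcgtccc
Nupr1: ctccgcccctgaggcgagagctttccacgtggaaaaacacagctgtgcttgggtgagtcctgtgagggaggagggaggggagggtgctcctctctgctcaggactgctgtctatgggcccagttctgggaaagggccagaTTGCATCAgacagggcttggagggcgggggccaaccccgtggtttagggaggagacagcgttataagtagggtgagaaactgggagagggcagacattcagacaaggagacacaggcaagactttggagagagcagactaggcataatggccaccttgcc
Chac1: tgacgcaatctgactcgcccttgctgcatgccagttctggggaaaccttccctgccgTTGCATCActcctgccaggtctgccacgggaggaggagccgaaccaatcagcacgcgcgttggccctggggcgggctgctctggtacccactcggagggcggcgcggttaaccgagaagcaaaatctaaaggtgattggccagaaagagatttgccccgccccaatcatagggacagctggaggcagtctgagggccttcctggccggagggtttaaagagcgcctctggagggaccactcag
Slc7a11: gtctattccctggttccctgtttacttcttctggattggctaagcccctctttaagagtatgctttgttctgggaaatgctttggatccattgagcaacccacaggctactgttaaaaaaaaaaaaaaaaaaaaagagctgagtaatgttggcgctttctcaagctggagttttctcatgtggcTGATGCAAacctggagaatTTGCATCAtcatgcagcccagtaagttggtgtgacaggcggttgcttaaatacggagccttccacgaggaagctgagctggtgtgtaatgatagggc
Pycr1: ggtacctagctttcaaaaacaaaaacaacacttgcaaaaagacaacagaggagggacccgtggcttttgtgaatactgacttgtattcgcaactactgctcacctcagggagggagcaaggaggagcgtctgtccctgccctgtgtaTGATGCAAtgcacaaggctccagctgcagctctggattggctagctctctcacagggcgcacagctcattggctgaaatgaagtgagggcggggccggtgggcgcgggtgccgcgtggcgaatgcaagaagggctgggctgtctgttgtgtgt
Aars: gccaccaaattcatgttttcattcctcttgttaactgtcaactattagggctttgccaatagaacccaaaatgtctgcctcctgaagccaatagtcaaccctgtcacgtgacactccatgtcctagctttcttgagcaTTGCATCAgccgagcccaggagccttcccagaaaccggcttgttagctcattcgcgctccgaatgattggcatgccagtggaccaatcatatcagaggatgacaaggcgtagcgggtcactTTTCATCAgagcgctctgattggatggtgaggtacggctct
Asns: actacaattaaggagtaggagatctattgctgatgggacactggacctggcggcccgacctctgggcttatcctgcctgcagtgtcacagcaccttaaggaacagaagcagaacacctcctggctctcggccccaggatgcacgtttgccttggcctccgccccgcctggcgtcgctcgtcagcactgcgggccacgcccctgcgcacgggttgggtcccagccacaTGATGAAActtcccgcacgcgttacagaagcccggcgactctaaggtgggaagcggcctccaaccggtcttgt
Gars: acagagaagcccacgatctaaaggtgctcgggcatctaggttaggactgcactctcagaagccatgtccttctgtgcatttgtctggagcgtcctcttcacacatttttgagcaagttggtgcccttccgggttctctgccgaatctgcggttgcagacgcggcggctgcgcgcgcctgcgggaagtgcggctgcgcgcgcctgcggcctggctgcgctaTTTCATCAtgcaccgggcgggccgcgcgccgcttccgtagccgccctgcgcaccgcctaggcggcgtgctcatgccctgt

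The windows lie at chr2:152344011-152344310 on the minus strand for Trib3, chr7:126625421-126625720 (minus) for Nupr1, chr2:119350992-119351291 (plus) for Chac1 and chr3:50443564-50443863 (minus) for Slc7a11. Those of the enzymes lie at chr11:120643699-120643998 (minus) for Pycr1, chr8:111033592-111033891 (plus) for Aars, chr6:7693160-7693459 (minus) for Asns and chr6:55037751-55038050 (plus) for Gars. Slc7a11 holds a pair of matches on opposite strands, starting 66 and 47 bases before the start, and Aars holds a pair on the other strand, 112 bases before and 9 bases after it. The match of Asns starts 23 bases before the start, that of Gars 30 bases before, and that of Trib3 lies 14 bases into the transcript. Atf3, Iars, Tars, Vldlr and Yars also held a match. The windows of Nupr1, Aars, Atf3 and Vldlr lie wholly within the span of the gene, so the RefSeq start used there is not the outer end of the gene. Cars, Lars, Nars, Slc7a5 and Wars had no window in the table. The 13 genes with a match had a median log2 change of 0.09 in siYAP1+TAZ and 0.84 in adeno-TEADi, beside 0.06 and 0.75 for the 16 whose window held none.

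**Figure D1:**
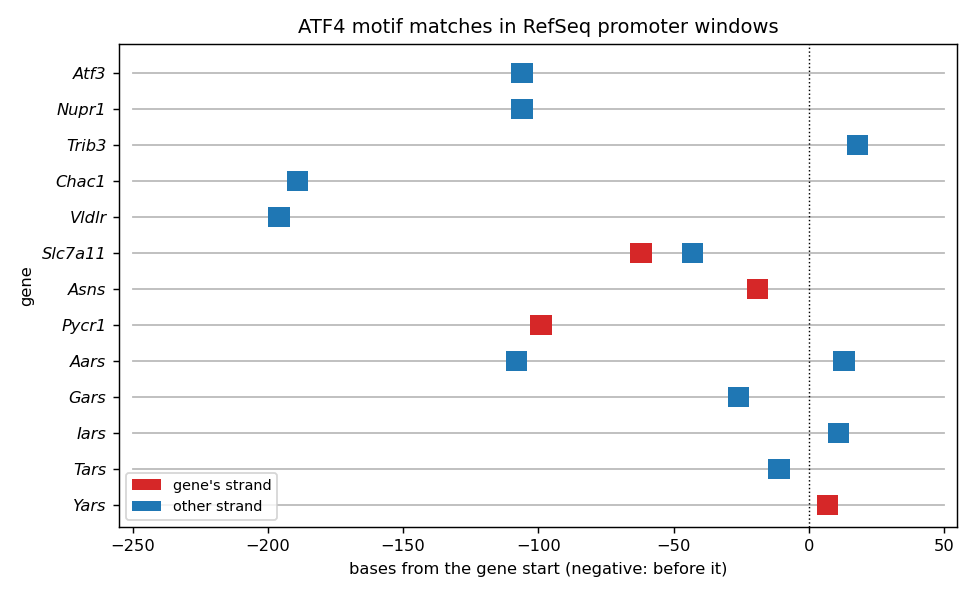
Positions of the ATF4-type element in the promoter windows of the 13 genes that hold it. The horizontal axis gives bases from the start of the RefSeq transcript, each grey line is a window of 300 bases, and the box colour gives the strand of the match. Slc7a11 and Aars each hold a pair of matches, and the match of Trib3 lies 14 bases after the start.

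In the knockdown of YAP1 and TAZ, calls were made in both directions. All 6 transcription factors were higher in siYAP1+TAZ than in siControl, led by Nupr1 (3.19-fold) and Cebpb (2.79-fold), whereas 6 of 8 amino acid synthesis enzymes were lower, led by Pycr1 (to 0.441 of the control level) and Phgdh (to 0.511). Over the 34 genes, 14 were higher and 11 lower at an adjusted p below 0.05 in limma, against 32.7% of all genes tested higher and 36.1% lower. Of these, 3 were higher by at least 2-fold, against 7.48% of all genes, and 1 was lower by at least 2-fold, against 2.3%. The median log2 change was 0.02, beside -0.03 over all genes. When each library was rescaled to its own total, the split became 8 higher and 19 lower, and with quantile normalization it became 9 and 18. That rescaling by totals moved the median of all genes by -0.17 on the log2 scale, and the median of the 34 genes stood 0.04 above it, beside 0.05 with the deposited scaling.

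With the TEAD inhibitor virus, set against the GFP virus, calls for the 34 genes went mostly in 1 direction. Of the 34 genes, 32 were higher in adeno-TEADi than in adeno-GFP, 1 was lower (Pycr1) and 1 did not pass (Slc7a1), against 33.5% of all genes higher and 26.3% lower. The kinase-like regulator Trib3 changed most (4.13-fold), followed by Nupr1 (3.39-fold) and Chac1 (2.90-fold). The median log2 change was 0.75, beside 0.03 over all genes, and 11 genes were higher by at least 2-fold, against 3.92% of all genes. By that measure 0 were lower, against 2.71%. Scaling by totals left 31 higher and 1 lower.

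The control groups also differed from each other, and in the other direction. In adeno-GFP, 31 of the 34 genes were lower than in siControl and 0 were higher by limma, also at an unadjusted p below 0.05, against 21.8% of all genes lower and 18.7% higher. The median log2 difference was -0.49, beside -0.01 over all genes, and 3 genes (Trib3, Psph and Mthfd2) were lower by at least 2-fold, against 0.393% of all genes, while 0 were higher by that much, against 0.625%. Lipid-borne siRNA was set here against a virus, so delivery, cargo and experiment cannot be told apart. This comparison shares its siControl libraries with the knockdown and its adeno-GFP libraries with the TEADi comparison, so the values are given side by side and no relation between them is drawn. Cells without any delivery were not analysed here.

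**Figure D2:**
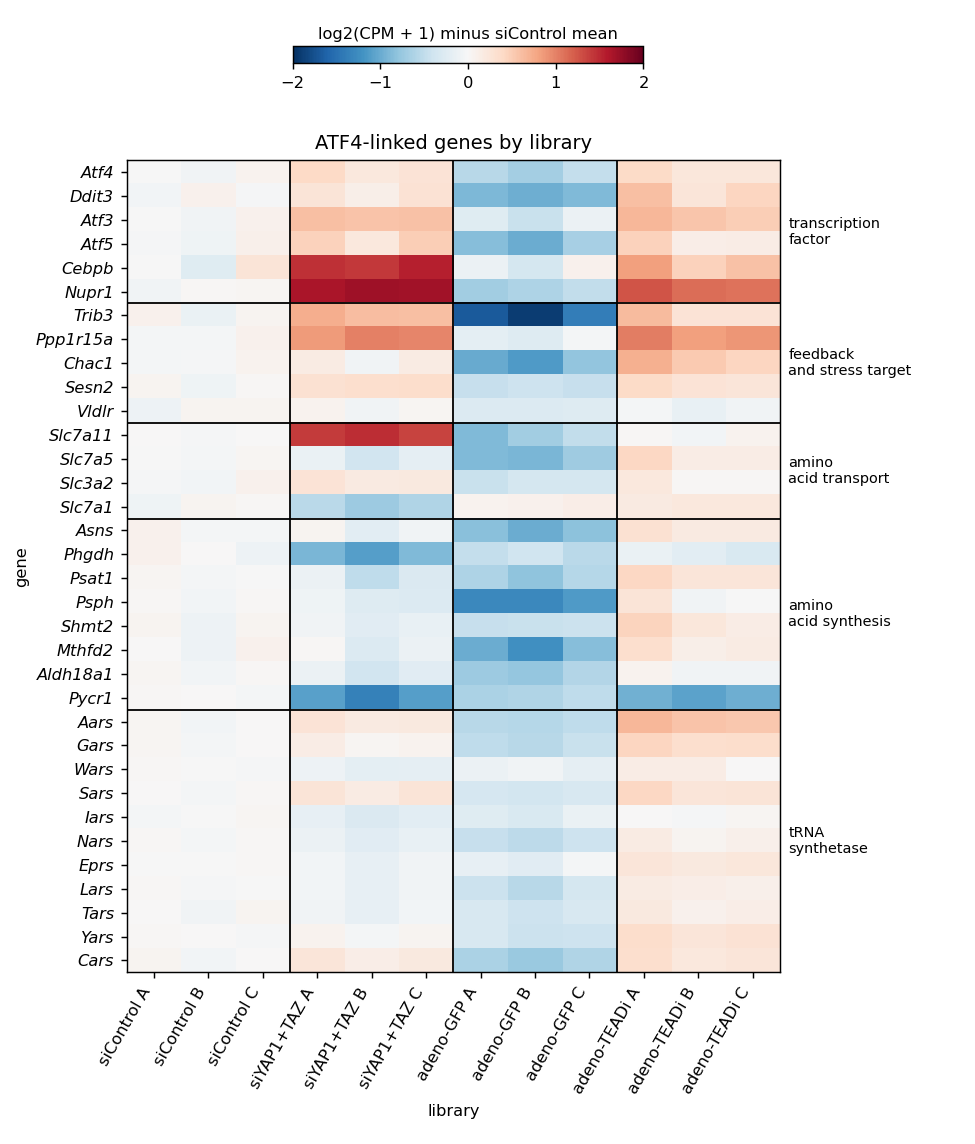
Level of each of the 34 genes in each of the 12 libraries, as log2(CPM + 1) minus the mean of the 3 siControl libraries, with red above and blue below that mean and black lines between groups and roles. The adeno-GFP columns are blue for most genes, the adeno-TEADi columns are mostly red, and the siYAP1+TAZ columns are red for transcription factors and blue for most synthesis enzymes.

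**Figure D3:**
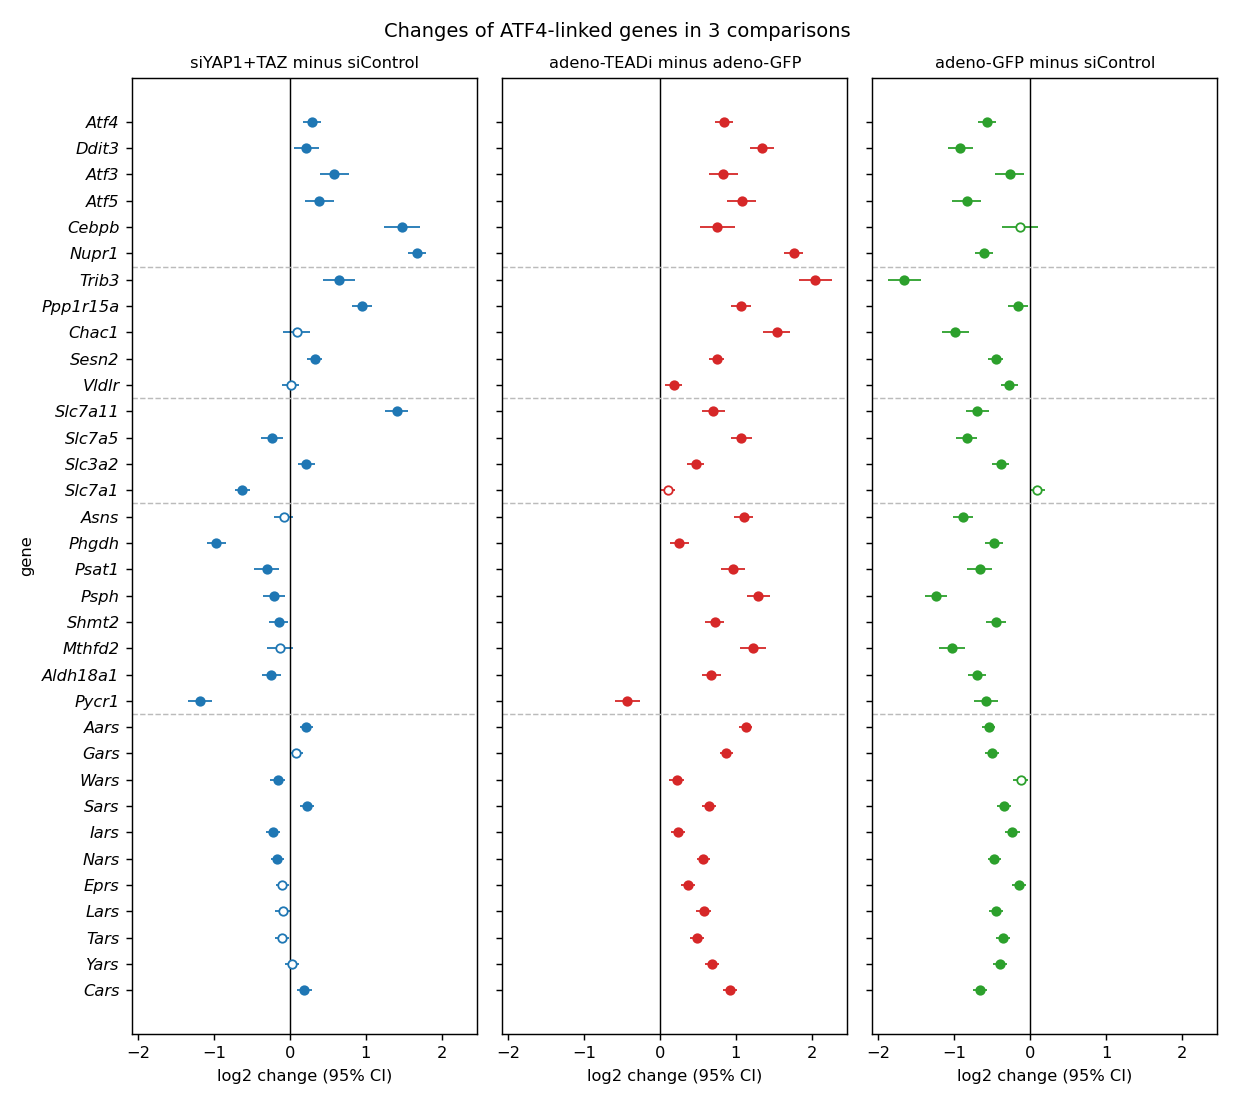
Log2 change of each gene in 3 comparisons, with 95% confidence intervals from limma. Filled points passed at an adjusted p below 0.05 and open points did not. Values lie on both sides of 0 for siYAP1+TAZ (14 higher, 11 lower with the deposited scaling, 8 and 19 with scaling by totals), to the right for adeno-TEADi (32 higher, 1 lower) and to the left for adeno-GFP against siControl (31 lower).

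Among the transcription factors, Atf4 itself (chr15:80255184-80257541, mm10, plus strand) was present at 287, 276 and 303 CPM in siControl, 379, 335 and 349.8 in siYAP1+TAZ, 196, 180.3 and 207 in adeno-GFP and 375, 339 and 337 in adeno-TEADi. Both treated groups lay above every library of their own control, and all adeno-GFP libraries lay below all siControl libraries. The log2 change was 0.29, SE 0.056, adjusted p = 0.00011 in the knockdown, where it did not pass after scaling by totals (0.10, adjusted p = 0.0813) or quantile normalization (0.11, adjusted p = 0.0637). It was 0.85, SE 0.056, adjusted p = 8.72e-11 with TEADi and -0.57, SE 0.056, adjusted p = 1.49e-07 between the controls. Messenger RNA does not report the translational control of ATF4, and no protein was measured in these files.

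Nupr1 (chr7:126623249-126630861, minus strand), a small stress-induced chromatin protein, stood at 22.1, 23.7 and 24.1 CPM in siControl and 74.4, 77.8 and 77.2 in siYAP1+TAZ. The viral groups had 13.9, 14.8 and 16.2 CPM in adeno-GFP and 56.9, 51.6 and 50.5 in adeno-TEADi. Neither treated group overlapped its control. The log2 change was 1.67 (adjusted p = 2.73e-15) in the knockdown and 1.76 (adjusted p = 2.97e-15) with TEADi, with a difference of 0.09 and a 95% interval of -0.09 to 0.26. Cebpb (chr2:167688915-167690418, plus strand), which encodes a C/EBP partner of ATF4 on the composite element, had 21.0, 17.7 and 25.5 CPM in siControl and 60.3, 58.2 and 64.2 in siYAP1+TAZ. It had 19.5, 16.4 and 22.5 CPM in adeno-GFP and 38.2, 29.7 and 32.5 in adeno-TEADi. The control groups overlapped, and the knockdown libraries were far above all the others. Its log2 change was 1.48, SE 0.11, adjusted p = 3.84e-10 in the knockdown and 0.76, SE 0.11, adjusted p = 7.56e-06 with TEADi. The TEADi change minus the knockdown change was -0.72 (adjusted p = 0.000793).

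Ddit3 (chr10:127290774-127296288, plus strand) encodes CHOP, the stress factor linked to cell death. It had 9.63, 9.09 and 9.71 CPM in adeno-GFP against 28.9, 22.5 and 25.7 in adeno-TEADi, with 17.98, 19.9 and 18.44 in siControl and 22.6, 20.4 and 23.0 in siYAP1+TAZ. The viral groups lay far apart, while the siRNA groups differed by little. The log2 change was 1.34 (adjusted p = 9.4e-12) with TEADi and 0.22 (adjusted p = 0.0165) in the knockdown, where leaving out a single library (siControl A, siYAP1+TAZ A or siYAP1+TAZ C) or scaling by totals (0.03, adjusted p = 0.692) ended the call. Atf5, an ATF4 relative that is itself under translational control, went from 70.8 ± 4.98 to 93.2 ± 10.00 CPM in the knockdown (log2 0.39 (adjusted p = 0.000833)) and from 39.4 ± 4.72 to 84.4 ± 11.5 CPM with TEADi (log2 1.08 (adjusted p = 3.25e-09)). Atf3, a stress-induced repressor, had the fewest reads of the factors, with 4.20, 3.97 and 4.52 CPM in siControl, 6.95, 6.72 and 6.84 in siYAP1+TAZ, 3.41, 2.84 and 3.82 in adeno-GFP and 7.31, 6.63 and 6.31 in adeno-TEADi. Treated libraries lay above all control libraries, with log2 changes of 0.58 (adjusted p = 1.1e-05) and 0.84 (adjusted p = 1.38e-07), and the lower level in adeno-GFP (-0.27 (adjusted p = 0.0237)) did not pass without adeno-GFP B (-0.18, adjusted p = 0.14), siControl A or siControl C.

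The feedback and stress targets rose in all 5 cases with TEADi, and 3 of 5 rose in the knockdown. Trib3 (chr2:152337422-152344032, minus strand), a pseudokinase that restrains ATF4 and CHOP, had 55.5, 47.5 and 54.1 CPM in siControl and 87.0, 80.9 and 80.0 in siYAP1+TAZ. It had 15.7, 13.3 and 19.4 CPM in adeno-GFP and 81.4, 63.4 and 63.7 in adeno-TEADi. Every adeno-GFP library was below every other library of the study, and the adeno-TEADi libraries all lay above the siControl libraries. The log2 change was 2.05, SE 0.10, adjusted p = 1.28e-12 with TEADi, 0.65, SE 0.10, adjusted p = 1.29e-05 in the knockdown and -1.65, SE 0.10, adjusted p = 3.28e-10 between the controls, the largest control difference of the 34 genes. Thus the TEADi change was 4.13-fold on the CPM + 1 scale, while the adeno-TEADi mean of 69.5 ± 10.3 CPM stood below the siYAP1+TAZ mean of 82.6 ± 3.79 CPM.

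Chac1 (chr2:119351229-119354381, plus strand), a glutathione-degrading enzyme, had 24.6, 25.0 and 26.7 CPM in siControl and 28.7, 24.3 and 28.6 in siYAP1+TAZ, which overlapped. In the viral groups it had 12.1, 11.1 and 14.2 CPM with GFP and 42.2, 36.9 and 34.8 with TEADi, which did not overlap. Its log2 change was 1.54, SE 0.084, adjusted p = 5.12e-12 with TEADi and 0.09 (adjusted p = 0.354) in the knockdown, with a 95% interval of -0.09 to 0.26. Ppp1r15a encodes GADD34, a subunit of the phosphatase that removes the phosphate from eIF2. Its mean went from 30.2 ± 1.51 to 59.1 ± 3.37 CPM in the knockdown (log2 0.95 (adjusted p = 5.57e-11)) and from 26.9 ± 2.16 to 57.4 ± 4.06 CPM with TEADi (log2 1.07 (adjusted p = 1.48e-11)). The controls overlapped, and their difference of -0.16 (adjusted p = 0.0446) lost its call in 12 of 21 alternatives, with adjusted p from 0.00868 to 0.173. Sesn2, a leucine sensor that restrains mTORC1, rose by a log2 of 0.33 (adjusted p = 3.76e-06) and 0.75 (adjusted p = 3.23e-11). Vldlr, a lipoprotein receptor, showed the smallest TEADi change among the feedback and stress targets (log2 0.18 (adjusted p = 0.00655)), and it did not pass after scaling by totals (0.09, adjusted p = 0.183) or quantile normalization (0.11, adjusted p = 0.0781). In the knockdown Vldlr was at 0.01 (adjusted p = 0.859), and at -0.18 (adjusted p = 0.00573) after scaling by totals.

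**Figure D4:**
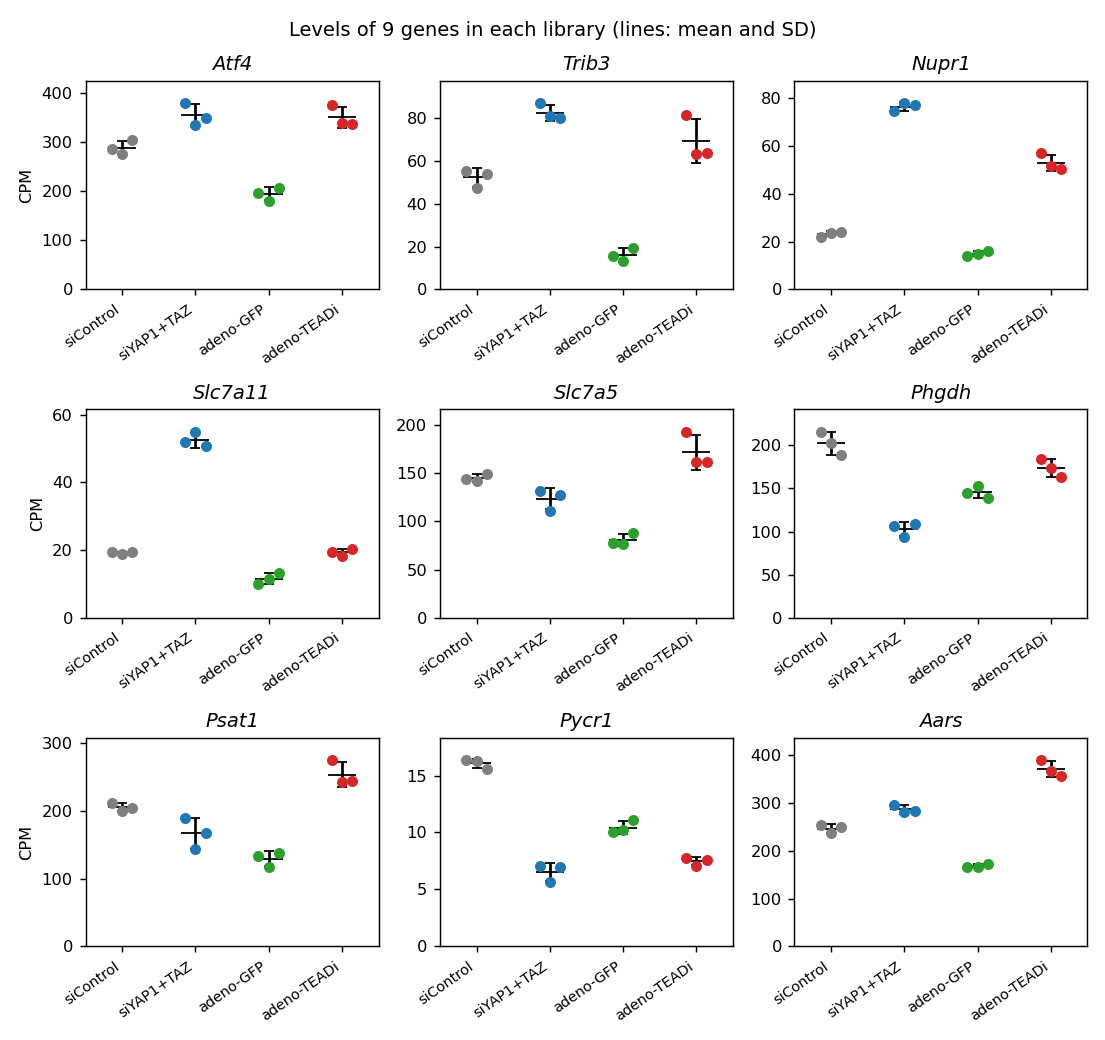
CPM of 9 genes in each library, with points for libraries A to C of each group and black lines for the mean and SD (n = 3), on vertical axes that start at 0 and differ between panels. Atf4, Trib3, Nupr1, Slc7a5, Psat1 and Aars are lowest in adeno-GFP, Phgdh and Pycr1 are lowest in siYAP1+TAZ, and Slc7a11 is highest in siYAP1+TAZ.

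In the knockdown 2 of the 4 transport genes rose (Slc7a11 and Slc3a2) and 2 fell (Slc7a5 and Slc7a1). Slc7a11 (chr3:49892526-50443614, minus strand), the cystine-importing subunit of system xc-, had 19.3, 18.9 and 19.3 CPM in siControl and 52.0, 54.9 and 50.6 in siYAP1+TAZ. With virus it had 9.99, 11.4 and 13.3 CPM in adeno-GFP and 19.6, 18.3 and 20.2 in adeno-TEADi. The knockdown libraries stood alone at the top, and the siControl libraries lay within the range of adeno-TEADi. Its log2 change was 1.41, SE 0.074, adjusted p = 1.41e-12 in the knockdown and 0.70, SE 0.074, adjusted p = 8.59e-08 with TEADi. Slc7a11 is also a target of NRF2, the oxidant-responsive factor.

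Slc7a5 (chr8:121881150-121907694, minus strand) encodes LAT1, which brings in leucine and other large neutral amino acids. It went the other way, with 144, 142 and 149 CPM in siControl against 132, 111 and 128 in siYAP1+TAZ, and 78.2, 76.6 and 88.2 in adeno-GFP against 193, 161 and 161 in adeno-TEADi. It fell in the knockdown (-0.23, SE 0.069, adjusted p = 0.00544) and rose with TEADi (1.07, SE 0.069, adjusted p = 5.48e-11). Slc3a2, the shared heavy chain of both transporters, rose in both comparisons (log2 0.22 (adjusted p = 0.00115) and 0.47 (adjusted p = 1.94e-07)), although its knockdown change was 0.02 (adjusted p = 0.666) after scaling by totals and 0.01 (adjusted p = 0.89) after quantile normalization. Slc7a1 (chr5:148327410-148399904, minus strand), the CAT1 importer of arginine and lysine, had 398, 436 and 429.6 CPM in siControl and 288, 253 and 277 in siYAP1+TAZ. Adeno-GFP had 440.2, 448 and 461 CPM and adeno-TEADi 476, 486 and 487. It fell in the knockdown (-0.62, SE 0.046, adjusted p = 2.99e-10) and was the gene that did not pass with TEADi (0.10 (adjusted p = 0.0623), interval 0.01 to 0.20), although it passed there in the fit of those 2 groups alone (adjusted p = 0.0359). Between the controls it stood at 0.10 (adjusted p = 0.106), and it passed as higher in adeno-GFP after scaling by totals (0.14, adjusted p = 0.0235) or quantile normalization (0.15, adjusted p = 0.0254).

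The 8 amino acid synthesis enzymes fell or did not pass in the knockdown, with 6 lower, 0 higher (also 0 at an unadjusted p below 0.05 in limma) and a median log2 change of -0.23. With TEADi 7 were higher and 1 lower, with a median of 0.84. Phgdh (chr3:98313170-98339990, minus strand), the first enzyme of serine synthesis, had 215, 203 and 189 CPM in siControl, 106, 94.0 and 108 in siYAP1+TAZ, 144, 152 and 139 in adeno-GFP and 184, 174 and 163 in adeno-TEADi. No groups overlapped within a comparison, and the knockdown libraries were the lowest of the study. Its log2 change was -0.97, SE 0.058, adjusted p = 1.29e-11 in the knockdown and 0.26, SE 0.058, adjusted p = 0.000912 with TEADi.

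Psat1 (chr19:15904678-15947337, minus strand), the next enzyme of the serine route, had 212, 200.0 and 204 CPM in siControl and 189.8, 144 and 167 in siYAP1+TAZ. In the viral groups it had 134, 117 and 138 CPM with GFP and 275, 242 and 243 with TEADi. Here siYAP1+TAZ varied most between its own libraries, but stayed below siControl throughout. The log2 change was -0.31 (adjusted p = 0.00149) in the knockdown and 0.96 (adjusted p = 1.37e-09) with TEADi. Psph, the phosphatase that releases serine, had 53.7 ± 1.78 CPM in siControl, 46.4 ± 3.50 in siYAP1+TAZ, 22.2 ± 1.54 in adeno-GFP and 56.2 ± 6.90 in adeno-TEADi (SD, n = 3). Its changes were -0.21 (adjusted p = 0.0145) and 1.30 (adjusted p = 6.08e-12), of which the knockdown call was lost without siYAP1+TAZ B (-0.18, adjusted p = 0.0577) or siYAP1+TAZ C (-0.18, adjusted p = 0.0659).

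The mitochondrial one-carbon enzymes Shmt2 and Mthfd2, which pass serine carbon on to folate, rose with TEADi by a log2 of 0.72 (adjusted p = 3.73e-09) and 1.23 (adjusted p = 9.49e-11). Mthfd2 had 89.4, 83.1 and 94.3 CPM in siControl, 89.9, 73.3 and 81.4 in siYAP1+TAZ, 44.3, 37.4 and 48.6 in adeno-GFP and 112, 96.5 and 99.7 in adeno-TEADi, so that the siRNA groups overlapped and the viral groups did not. In the knockdown Shmt2 was lower by a log2 of -0.15 (adjusted p = 0.0394) with groups that overlapped, and the call was lost without siControl A, siControl C, siYAP1+TAZ B or siYAP1+TAZ C (adjusted p 0.0734 to 0.176). Mthfd2 did not pass there (-0.13 (adjusted p = 0.177)). Asns (chr6:7675169-7693254, minus strand), asparagine synthetase and the classic target of amino acid shortage, had 218, 201 and 199 CPM in siControl and 213, 177 and 195 in siYAP1+TAZ, which overlapped. It had 115, 103 and 116 CPM in adeno-GFP and 254, 233 and 232 in adeno-TEADi. It rose with TEADi (1.10, SE 0.061, adjusted p = 6.31e-12) and did not pass in the knockdown (-0.08 (adjusted p = 0.245)), where it was lower after scaling by totals (-0.27, adjusted p = 0.000214).

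The proline enzymes parted with TEADi. Aldh18a1, which opens proline synthesis from glutamate, fell in the knockdown (log2 -0.24 (adjusted p = 0.00127)) and rose with TEADi (log2 0.68 (adjusted p = 6.32e-09)). Pycr1 (chr11:120635712-120643769, minus strand), the mitochondrial reductase that completes it, had 16.3, 16.2 and 15.6 CPM in siControl and 7.02, 5.66 and 6.95 in siYAP1+TAZ. It had 10.0, 10.2 and 11.1 CPM in adeno-GFP and 7.74, 7.09 and 7.62 in adeno-TEADi. Its siControl libraries were the highest, and both treated groups lay below both controls. Pycr1 was the single gene of the 34 that fell in both comparisons (log2 -1.18, SE 0.078, adjusted p = 5.16e-11 and -0.43, SE 0.078, adjusted p = 9.11e-05), and it kept both calls in all 21 alternatives. Its window holds the ATF4-type element printed above.

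The 11 tRNA synthetases all rose with TEADi, from a log2 of 0.22 for Wars to 1.13 for Aars, with a median of 0.58. In the knockdown 3 rose and 3 fell, against 32.7% of all genes higher and 36.1% lower, with a median of -0.10. After scaling by totals or quantile normalization 0 of the 11 were higher and 8 lower. Aars (chr8:111033144-111057664, plus strand), which charges alanine tRNA, had 254, 237 and 249 CPM in siControl and 297, 281 and 283 in siYAP1+TAZ. It had 167, 167 and 174 CPM in adeno-GFP and 389.6, 366 and 357 in adeno-TEADi. The 4 groups were fully separate, in the order adeno-TEADi, siYAP1+TAZ, siControl and adeno-GFP. Its log2 change was 1.13, SE 0.041, adjusted p = 1.21e-14 with TEADi and 0.22, SE 0.041, adjusted p = 0.000106 in the knockdown, which after scaling by totals was 0.02 (adjusted p = 0.559).

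Cars, Gars, Yars and Sars, for cysteine, glycine, tyrosine and serine, rose with TEADi by 0.92, 0.87, 0.68 and 0.65 on the log2 scale (adjusted p from 7.24e-13 to 1.59e-10). Gars (chr6:55038007-55079500, plus strand) had 223, 217 and 234 CPM in adeno-GFP against 428, 399.5 and 407 in adeno-TEADi, with 325, 308 and 320.1 in siControl and 352, 325 and 335 in siYAP1+TAZ. Sars and Cars were also higher in the knockdown (0.23 (adjusted p = 0.000163) and 0.19 (adjusted p = 0.00104)), but not after scaling by totals, where Sars was at 0.03 (adjusted p = 0.459) and Cars at -0.000171 (adjusted p = 0.997). Gars and Yars did not pass in the knockdown (0.09 (adjusted p = 0.0731) and 0.03 (adjusted p = 0.528)), and both were lower after scaling by totals (-0.11 and -0.16). Gars passed as higher there with the replicate letter as a replicate block (0.09, adjusted p = 0.0342) and without siYAP1+TAZ B (0.11, adjusted p = 0.0408).

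Nars, Iars and Wars, for asparagine, isoleucine and tryptophan, fell in the knockdown by a log2 of -0.16 (adjusted p = 0.00188), -0.22 (adjusted p = 0.000196) and -0.16 (adjusted p = 0.00532), and rose with TEADi by 0.57, 0.24 and 0.22. Nars went from 418, 400.4 and 416 CPM in siControl to 381, 351 and 370.4 in siYAP1+TAZ, and from 299, 286 and 308 in adeno-GFP to 459, 425 and 443 in adeno-TEADi. All 3 genes kept these calls in all 21 alternatives. Eprs, Lars and Tars, for glutamate with proline, leucine and threonine, did not pass in the knockdown (log2 -0.10 in each, adjusted p 0.0515 to 0.0699) and rose with TEADi (0.36, 0.58 and 0.49). These 3 sat close to the threshold in the knockdown: each passed as lower after scaling by totals, with the replicate letter as a term, and in the fit of those 2 groups alone.

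Between the controls, the lower level in adeno-GFP took in 5 of 6 transcription factors, 5 of 5 feedback and stress targets, 3 of 4 transport genes, 8 of 8 synthesis enzymes and 10 of 11 synthetases. Psph showed the largest difference among the enzymes, with 54.8, 51.6 and 54.7 CPM in siControl and 21.3, 21.4 and 24.0 in adeno-GFP (log2 -1.24, SE 0.072, adjusted p = 1.55e-10). Mthfd2 followed at -1.02 (adjusted p = 9.88e-09) and Asns at -0.88 (adjusted p = 1.39e-09). The synthetases were lower by less, from -0.66 for Cars to -0.14 for Eprs, and Wars did not pass (-0.12 (adjusted p = 0.0512)). Eprs lost the call without adeno-GFP A (-0.13, adjusted p = 0.0553) or adeno-GFP B (-0.10, adjusted p = 0.083). It also lost it after scaling by totals (-0.098, adjusted p = 0.0649) or quantile normalization (-0.064, adjusted p = 0.245). Cebpb (-0.13 (adjusted p = 0.371)) and Slc7a1 also did not pass, and 28 of the 31 kept the call in all 21 alternatives. The immune marker sum was of like size in these groups.

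Set beside each other, the groups of 28 genes had adeno-GFP lowest with the other groups in 1 of 3 orders: adeno-TEADi above siControl above siYAP1+TAZ in 11 genes, siYAP1+TAZ above adeno-TEADi above siControl in 10, and adeno-TEADi above siYAP1+TAZ above siControl in 7. In all, adeno-GFP had the lowest mean in 30 of the 34 genes and adeno-TEADi the highest in 20. The share of all genes with such orders was not computed, so these counts do not set the 34 genes apart. Without a test, every adeno-TEADi library lay above every siControl library in 25 genes, against 35.2% of all genes, and below in 2 (Phgdh and Pycr1), against 27.9%. The groups of a comparison did not overlap in 27 genes for the knockdown (72.2% of all genes), in 34 for TEADi (64%) and in 32 for the controls (49.7%).

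The question whether the knockdown and the TEAD inhibitor moved a gene differently was tested as the difference of the effects, each against its own control libraries. The TEADi change was the higher one in 28 genes and the lower one in 2 (Cebpb and Slc7a11), against 26.4% and 25.1% of all genes. It exceeded the knockdown change by at least 2-fold in 9 genes, against 0.686% of all genes, and fell short of it by that much in 0, against 3.36%. The median difference was 0.71, beside 0.02 over all genes. Psph showed the largest difference (1.504, SE 0.10, adjusted p = 8.51e-10), followed by Chac1 (1.45) and Trib3 (1.40). All 8 synthesis enzymes and all 11 synthetases passed in this direction. The 4 genes that did not pass were Nupr1, Atf3 (0.25, interval -0.02 to 0.52), Ppp1r15a (0.12, interval -0.06 to 0.31) and Vldlr (0.17, interval 0.01 to 0.33), and these intervals do not show equal changes. Since the TEADi effect is taken against adeno-GFP, a lower level in adeno-GFP enters the difference directly, and the parts of the virus and of TEADi in it cannot be told apart.

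Calls in opposite directions, lower in the knockdown and higher with TEADi, were made for 9 genes, against 4.77% of all genes. They were the enzymes Phgdh, Psat1, Psph, Shmt2 and Aldh18a1, the synthetases Wars, Iars and Nars, and the transporter Slc7a5. Calls of higher in both were made for 14 genes, against 20.7% of all genes, among them all 6 transcription factors.

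Other genes of the same biology were read from lists chosen by function. The counts of each list stand beside these shares of all genes. In the knockdown 32.7% were higher and 36.1% lower, with TEADi 33.5% and 26.3%, and between the controls 18.7% and 21.8%. Of 17 tested other genes linked to ATF4, 13 were higher and 4 lower with TEADi (Cbs -0.95, Slc1a4 -0.29, Jdp2 -0.28 and Slc1a5 -0.19), with a median of 0.38. In the knockdown 4 were higher (Gpt2 1.51, Vegfa 1.11, Cebpg 0.29 and Ddit4 0.24) and 12 lower, with a median of -0.39. Between the controls 13 were lower and 1 higher (Cbs). Gpt2, a mitochondrial alanine aminotransferase, had 47.9, 46.9 and 48.0 CPM in siControl, 139, 143 and 131 in siYAP1+TAZ, 26.7, 25.6 and 28.2 in adeno-GFP and 71.6, 71.0 and 71.4 in adeno-TEADi. All 4 groups were separate there. Stc2, a secreted stress glycoprotein, had 15.4, 16.1 and 19.6 CPM in siControl, 15.7, 10.8 and 11.7 in siYAP1+TAZ, 4.77, 4.55 and 5.69 in adeno-GFP and 20.5, 15.6 and 16.4 in adeno-TEADi. It rose most with TEADi in this list (1.62 (adjusted p = 5.37e-10)), and Aldh1l2, a mitochondrial folate enzyme, was lowest in adeno-GFP (-1.61 (adjusted p = 1.06e-09)). Gdf15 and Fgf21, secreted ATF4 targets, were under the minimum level and were not tested.

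Of 12 tested cytosolic synthetases and synthetase-complex genes outside the 34, 7 were higher and 0 lower with TEADi, with a median of 0.18 beside 0.58 for the 11 above, led by Mars (0.55), Rars (0.52) and Hars (0.49). Between the controls 3 of the 12 were lower (Mars -0.33, Farsb -0.18 and Rars -0.12) and Kars was higher (0.15). By limma at an unadjusted p below 0.05, 1 of the 12 was lower with TEADi (Vars, -0.12). In the knockdown 6 were lower and 3 higher (Qars 0.48, Hars 0.36 and Rars 0.12). Of 17 mitochondrial synthetases, 4 were higher with TEADi (Lars2 1.06, Rars2 0.23, Nars2 0.20 and Tars2 0.16), 2 were lower (Pars2 -0.37 and Mars2 -0.31), and 11 did not pass. Among all genes 33.5% were higher and 26.3% lower there. The ATF4-type element was found in 0 of the 9 other cytosolic and 0 of the 14 mitochondrial synthetase genes with a window, against 4.51% of all genes with a window. Of the other ATF4-linked genes, 4 of 15 with a window held it. Jdp2 and Slc1a4 were lower with TEADi, Got1 was higher, and Fgf21 was not tested. Whether the element goes with the change was not tested. Whether the synthetase lists differ from each other was not tested.

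The upstream pathway was read from its messenger RNAs. Of 14 genes for eIF2 kinases and translation control, 8 were higher and 2 lower with TEADi, with a median of 0.15. The largest changes were in Eif4ebp1, an inhibitor of cap-dependent translation and itself an ATF4 target (0.77), Ppp1r15b, the constitutive partner of the eIF2 phosphatase (0.67), and Eif2b4, a subunit of the eIF2 exchange factor (0.51). In the knockdown 3 were higher (Eif2b4 0.73, Ppp1r15b 0.61 and Eif2ak1 0.37) and 3 lower (Eif2b3 -0.56, Eif2ak4 -0.30 and Eif2s1 -0.11), with a median of -0.05. Among the eIF2 kinases, Eif2ak4, which encodes GCN2, was lower in the knockdown and with TEADi (-0.30 in each), and Eif2ak3, which encodes PERK, passed in neither (-0.02 and -0.05). Eif2ak1, which encodes HRI, did not pass with TEADi (-0.06), and Eif2ak2, which encodes PKR, was lower with TEADi (-0.17) and did not pass in the knockdown (-0.04). Between the controls, Eif2ak1 (0.22), Eif2ak2 (0.32) and Eif2ak4 (0.20) were higher in adeno-GFP than in siControl, and Eif2ak3 was lower (-0.27). Kinase activity and eIF2 phosphorylation are not read by these data.

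Within a group, the 34 genes moved together from library to library. Adeno-TEADi A was the highest library of its group for 31 of 34 genes, against 38.4% of all genes, and adeno-GFP C for 29, against 39.0%. SiYAP1+TAZ B was the lowest of its group for 28, against 36.6%. Library B was also most often the lowest in siControl (23 genes, against 38.3%), adeno-GFP (23, against 43.1%) and adeno-TEADi (21, against 30.3%). The median deviation from the group mean over the 34 genes was 0.09 on the log2 scale in adeno-TEADi A, 0.08 in adeno-GFP C and -0.07 in siYAP1+TAZ B, beside 0.0079, 0.011 and -0.0028 over all genes. Without adeno-TEADi A the TEADi counts stayed at 32 and 1, and without siYAP1+TAZ B the knockdown counts were 15 higher and 9 lower.

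**Figure D5:**
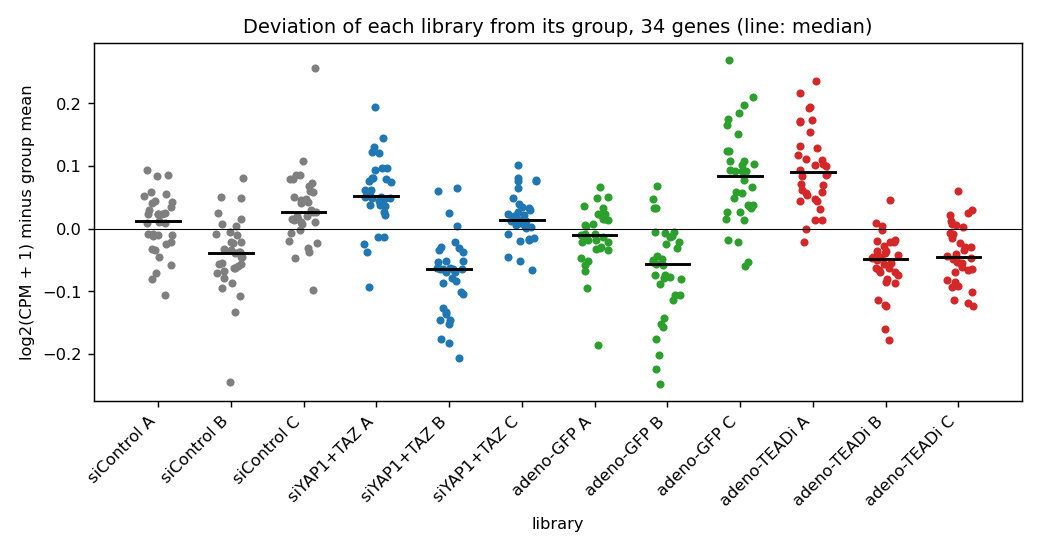
Deviation of each of the 34 genes in each library from its group mean, as a difference of log2(CPM + 1) values, with a black line at the median of the library. Most points lie above 0 in adeno-TEADi A and adeno-GFP C and below 0 in library B of every group.

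The authors' deposited table of comparisons, read at its own adjusted p below 0.05, gave 14 of the 34 genes as higher and 11 as lower in siYAP1+TAZ, and 32 as higher and 1 as lower in adeno-TEADi. Each gene had the same call there as in limma, in both comparisons. Some values carry a further limit. Exons of Ddit3, Atf5, Cebpb, Psph, Shmt2 and Yars overlap those of another expressed gene on the other strand, and the sources used here do not say whether counting used strand. Exons of Aars overlap those of Exosc6 on the same strand, and Exosc6 had no values, so reads of that stretch cannot be parted by strand. Phgdh in 12 libraries, Atf4 in 9, Sars in 7, Iars in 6 and Asns and Nars in 5 each did not lie on whole multiples of 1 read. Some other genes of the 34 missed them in fewer libraries. The handling of reads shared between gene copies is not given either.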

How the data were processed

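Poly(A) RNA sequencing libraries (TruSeq mRNA, TRIzol RNA, per the labels' protocols) were compared in 4 groups of 3. The authors deposited CPM values for 17090 genes, with a TMM (trimmed mean of M-values) scaling named in the file. Their second deposited table holds a linear ratio, fold change, p-value and adjusted p-value per comparison, whose test no source here names. Listed in the submitters' processing notes, with no role, are cutadapt 1.18, STAR 2.7.0f, Partek 8.0.19.0819 and build mm10. The counting rule was not given. Gene ends are those of the deposited table less 1, which matched GENCODE vM21 at both ends for 17071 genes, all 34 described here among them.

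Depth was taken as the column total over the lowest value, read as 1 read. Low values came within 0.1 read of a whole number in 82.8% to 85.2% of cases, under the 95% required, so no count model was run. Tests used limma 3.58.1 (R 4.3.3) on log2(CPM + 1), which understates changes of low genes, over the 12966 genes that reached 1 CPM in 3 or more libraries (4124 set aside). One fit held all 12 libraries, with eBayes and a mean-dependent trend. Tests were two-sided, with Benjamini-Hochberg adjustment over all genes tested and a threshold of 0.05, and the code was tested on simulated data. A 2-fold count takes genes that passed and changed at least 2-fold on that scale. Fold values are on the CPM + 1 scale.

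All members are named. Of other lists, up to 4 genes a comparison with the largest change among those that passed without overlap of groups are named, and counts of 5 or fewer in full. The genes behind the TEADi and control counts of the other serine, glycine, proline and one-carbon enzymes are not all reported here. Ptprc, Cd68, Itgam, Lyz2, Csf1r, the eIF2 kinase genes and Vars were named after their values were seen. Promoters were shown for genes with a motif match that passed with at least 1.5-fold change in a treatment comparison, at most 8, none from chromosome 18. The members and lists were chosen with earlier results of these data known. Alternatives were other pseudocounts (0.1 and 5 CPM), filters, scalings, fits and left-out libraries.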

Additional observations from a re-analysis of the deposited data

Results flagged for a closer look

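For 30 of the 34 genes the effect of adeno-TEADi against adeno-GFP differed from that of siYAP1+TAZ against siControl in limma's test of the difference (adjusted p below 0.05 over all genes, 3 libraries a group). Over all genes tested, the TEADi change was the higher one in 26.4% and the lower one in 25.1%. A lower level in adeno-GFP enters these differences directly, so the parts of the virus and of TEADi cannot be told apart. Values are the TEADi change minus the knockdown change on the log2 scale, and outliers within groups were not searched for, since each group has 3 libraries.

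The difference was negative for Cebpb (-0.72) and Slc7a11 (-0.70), where the knockdown change was the higher one. It was positive for the other 28. Among the factors and stress targets it was 0.55 for Atf4, 1.13 for Ddit3, 0.69 for Atf5, 1.40 for Trib3, 1.45 for Chac1 and 0.42 for Sesn2. Among the transport genes it was 1.31 for Slc7a5, 0.25 for Slc3a2 and 0.73 for Slc7a1. Among the synthesis enzymes it was 1.183 for Asns, 1.22 for Phgdh, 1.27 for Psat1, 1.504 for Psph, 0.87 for Shmt2, 1.35 for Mthfd2, 0.92 for Aldh18a1 and 0.75 for Pycr1. Among the synthetases it was 0.91 for Aars, 0.79 for Gars, 0.38 for Wars, 0.42 for Sars, 0.46 for Iars, 0.73 for Nars, 0.46 for Eprs, 0.67 for Lars, 0.59 for Tars, 0.65 for Yars and 0.73 for Cars. For Pycr1 the positive value joins a pair of decreases, of which the knockdown one was the larger.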

How the results depend on the processing

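The 28 positive and 2 negative differences between the TEADi and knockdown effects kept their calls in all 20 alternatives run for them. With TEADi, 31 of 32 higher calls and the 1 lower call held in all 21, and between the controls 28 of 31 lower calls did. In the knockdown 8 of 14 higher and 9 of 11 lower calls held in all 21. The 6 higher calls not held were lost after scaling by totals, and the 2 lower ones (Psph and Shmt2) were lost without single libraries or, for Shmt2, without the trend. Scaling by totals gave 8 higher and 19 lower, and quantile normalization 9 and 18. These scalings turned the knockdown value of Vldlr (-0.18, totals), Gars (-0.11 and -0.10), Yars (-0.16 and -0.12) and Cars (-0.000171 and -0.034). Each gave 1 gene higher between the controls (Slc7a1) in place of 0. Column totals were higher in siYAP1+TAZ (1015290 to 1018840) than in its control siControl (884500 to 898991). They were also higher in adeno-TEADi (914082 to 937954) than in adeno-GFP (857858 to 872057). The cause was not tested. Over all genes, scaling by totals changed the higher and lower calls from 4245 and 4687 to 2836 and 7146 in the knockdown, from 4339 and 3415 to 3034 and 4717 with TEADi, from 2421 and 2823 to 3180 and 2214 between the controls, and from 3424 and 3249 to 4655 and 2514 for the difference.

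Leaving out a library gave 13 to 15 higher and 9 to 14 lower in the knockdown, 32 to 33 and 1 with TEADi, 0 and 29 to 32 between the controls, and 28 to 29 and 2 for the difference. With the replicate letter as a replicate block the counts were 15 higher and 15 lower in the knockdown, 32 and 1 with TEADi, 0 and 32 between the controls, and 28 and 2 for the difference. Over all genes tested, deviations of libraries with the same letter correlated by -0.03 to 0.16, so the letters were not taken to pair the samples. Among the 34 genes, however, library B was most often the lowest in every group. Whether the letter marks a shared shift in these genes was not tested. The edgeR test on recovered reads was not run, because too few low values were whole. Depth sets the precision of Atf3 most, with 75 reads in its lowest library.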

Other observations

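Enzymes and transporters next to the programme had calls in both directions. Among all genes, 32.7% were higher and 36.1% lower in the knockdown, 33.5% and 26.3% with TEADi, and 18.7% and 21.8% between the controls. Of 16 tested other serine, glycine, proline and one-carbon enzymes, 3 were higher in the knockdown (Srr 0.45, Gldc 0.42 and Prodh 0.40) and 10 lower. With TEADi 3 were higher and 5 lower, with a median of -0.01, and between the controls 5 were higher and 3 lower. Glul, glutamine synthetase, had 5.81, 8.21 and 6.96 CPM in siControl, 5.07, 5.88 and 5.68 in siYAP1+TAZ, 37.9, 42.3 and 36.9 in adeno-GFP, and 3.54, 4.26 and 4.07 in adeno-TEADi. The adeno-GFP libraries stood far above all others. Its log2 difference was 2.33 between the controls (adjusted p = 1.68e-12) and -3.02 with TEADi (adjusted p = 2.13e-15), while most ATF4-linked genes were lowest in adeno-GFP.

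Of 11 tested other amino acid transporters, 8 were higher and 2 lower in the knockdown (Slc7a6 -0.75 and Slc7a7 -0.30), and 1 was higher (Slc6a14 0.62) and 7 lower with TEADi. Slc43a2, which carries large neutral amino acids, was higher in the knockdown (1.09) and lower with TEADi (-0.25), the opposite of Slc7a5. Of 9 NRF2 targets, a list that also holds Slc7a11, 6 were higher in the knockdown, among them Hmox1 (1.98) and Srxn1 (1.66), and 3 lower (Gclc -0.95, Txnrd1 -0.72 and Gsr -0.36). With TEADi 6 were higher, among them Hmox1 (1.58) and Nqo1 (1.19), and 2 lower (Gclc -0.64 and Txnrd1 -0.19).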
